A study of Mus musculus with 6 samples.

Results

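A set of 35 genes of cholesterol and fatty acid synthesis and of sterol efflux was examined in murine bone marrow HSPCs lacking Mirc11. The genes were taken by symbol from a named list, and 33 of them, among 15662 genes in all, had a mean value of at least 1 and were compared. Idi1 was not analysed here. Hmgcs1, the synthase that makes HMG-CoA (chr13:119690379-119708260, GRCm38 as all positions here), had values but fell under the minimum, with 3 reads over all libraries. The 33 genes fell into 4 of the mevalonate steps, 10 of the sterol steps, 5 of sterol sensing and SREBP, 7 of LXR and efflux, and 7 of fatty acid synthesis.

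The Mirc11-/- group held 3 libraries from mice lacking the cluster that codes for miR-23a, miR-27a and miR-24, and the wildtype group held 3 libraries. All mice were C57BL/6 animals of 6 to 8 weeks in normal hematopoiesis, with no treatment named, and each library came from 1 RNA preparation of sorted cells pooled from 3 to 4 mice. The cells were Lin-Sca1+cKit+ (LSK), the bone marrow fraction that holds stem cells and multipotent progenitors. All 6 libraries carry the same batch label. The values are read counts divided by a size factor for each library and are called normalized counts. Fold changes are given as Mirc11-/- over wildtype, on the scale log2(normalized count + 1).

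Cholesterol is built from acetyl-CoA through mevalonate, squalene and lanosterol, and the enzymes of this path are switched on together by SREBP-2 when sterol in the endoplasmic reticulum runs low. SCAP carries the SREBPs to the Golgi for cleavage, INSIG proteins hold them back, and SREBP-1 acts mainly on fatty acid synthesis. The LXR receptors sense oxysterols and switch on the efflux transporters Abca1 and Abcg1, the lipid carrier apolipoprotein E and the receptor-degrading ligase Mylip, and this loop is known to restrain the growth of blood stem and progenitor cells.

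Reads on Mir23a, Mir27a and Mir24-2 were 0 in the Mirc11-/- libraries together, against 51, 54 and 73 in the wildtype libraries together. Depth was 15029379 to 17051541 reads in genes per Mirc11-/- library and 15772826 to 16250826 per wildtype library. The HSPC markers Kit (6644 to 9950 in Mirc11-/-, 8577 to 9416 in wildtype), Cd34 (7475 to 13380 in Mirc11-/-, 12410 to 13794 in wildtype) and Ly6a (374 to 534 in Mirc11-/-, 444 to 683 in wildtype) were present in every library. Mirc11-/- libraries 1 and 2 stood apart on the first principal component (31.3% of variance), at 54.6 and 25.5. Mirc11-/- library 3 was at -19.5 there, within the wildtype range of -26.2 to -13.5. On the second component (23.9%) Mirc11-/- libraries 2 and 3 stood apart, at -32.5 and -35.8. Library 1 was at 18.0 there, within the wildtype range of -2.15 to 27.0. The erythroid list moved like the first component, and all 20 of its markers had positive fold changes. Their summed normalized count was 52785, 49562 and 22595 in Mirc11-/- libraries 1 to 3, against 29945, 22347 and 21248 in wildtype. Klf1, an erythroid transcription factor, was 1724, 1762 and 604 in Mirc11-/- and 922, 575 and 451 in wildtype. In bulk RNA, a different number of cells of a type and a different amount of RNA per cell cannot be told apart.

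The sequences of the deleted miRNAs are shown because their seeds were searched in the 33 genes. They are the RefSeq mature forms (GRCm38.p6, chr8, plus strand) with bases 2 to 8 in capitals. The seeds of miR-23a and miR-27a share their start but not all 7 bases, so that these seeds differ from each other. The paper names a paralog cluster, Mirc22, whose miRNAs were not examined here.
mmu-miR-23a-3p: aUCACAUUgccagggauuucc
mmu-miR-27a-3p: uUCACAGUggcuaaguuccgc
mmu-miR-24-3p: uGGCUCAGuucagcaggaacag

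The seed of miR-27a was matched in the longest annotated 3′ UTR (GENCODE M21) of 5 genes (Sc5d, Abca1, Fasn, Scd2 and Elovl6), that of miR-23a in 4 (Abcg1, Mylip, Scd2 and Elovl6) and that of miR-24 in 4 (Insig1, Acly, Acaca and Fasn). These are 15.2%, 12.1% and 12.1% of the 33 genes, against 16.8%, 16.1% and 18.8% of 13557 tested genes with an annotated 3′ UTR. The efflux genes Abca1, Abcg1 and Mylip, the sensor Insig1 and the synthase Fasn are shown with 30 bases around 1 match each, or around 1 match for each of 2 miRNAs in Fasn, the match being in capitals.
Abca1, miR-27a, match from base 2459 of the 3′ UTR: gtggaaaacttactaACTGTGAatatgaga
Abcg1, miR-23a, match from base 3581 of the 3′ UTR: ctaaaggagaatgagAATGTGAcagacaga
Mylip, miR-23a, match from base 148 of the 3′ UTR: ggaaaagaaaacaagAATGTGAccacacct
Insig1, miR-24, match from base 967 of the 3′ UTR: tgtatgaaaaccaatCTGAGCCttgtattc
Fasn, miR-27a, match from base 1127 of the 3′ UTR: aagcagtatgtgaccACTGTGAgaagcatg
Fasn, miR-24, match from base 260 of the 3′ UTR: gaggcaggagccaaaCTGAGCCttttctac
A match of 7 bases is a description of the sequence and not a shown site of binding. All 10 genes with any match had log2 fold changes below 0, between -0.28 and -0.04 with a median of -0.16, although Abca1 and Scd2 came above 0 without wildtype library 3. Of the 23 genes without a match 7 were above 0 and 16 below 0, with a median of -0.05. Fold changes of genes with a match outside the 33 were not compared, and a link of this split to the seeds was not tested.

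Apoe, which codes for the lipid carrier apolipoprotein E, had the smallest p of the 33 genes. Apoe (chr7:19696109-19699188, minus strand) had normalized counts of 848, 624 and 784 in Mirc11-/- libraries 1 to 3, against 1501, 1180 and 1311 in wildtype libraries 1 to 3. Every Mirc11-/- library was below every wildtype library, and the means were 752 ± 115 in Mirc11-/- and 1331 ± 161 in wildtype (SD, n = 3 each). The log2 fold change was -0.83 (SE 0.14, 95% interval -1.13 to -0.52), a level of 0.564 times wildtype, and limma ranked it 11 of all genes by p. With Benjamini-Hochberg adjustment over all genes it was not called by limma (adjusted p = 0.258). DESeq2 on the recovered reads called Apoe lower (adjusted p = 0.00018), where 0.643% of its genes were called lower, and edgeR called 0 of the 33 genes. Before adjustment, 2 of the 33 genes were higher and 3 lower with p under 0.05, both by edgeR (4.65% and 4.01% of all genes) and by DESeq2 (4.14% and 3.6%). Without Mirc11-/- library 3 limma called Apoe (log2 fold change -0.86, adjusted p = 0.0165), in a fit that called 1.46% of all genes lower. Over the fits that left out 1 library the fold change stayed between -0.92 (without Mirc11-/- library 1) and -0.70 (without Mirc11-/- library 2), and limma did not call Apoe in the other 5 of these fits. Mirc11-/- library 3, in which the erythroid sum was at the wildtype level, was 0.76 below the wildtype mean on the log2 scale for Apoe, against 0.64 and 1.08 in libraries 1 and 2. The part of erythroid cells in the Apoe values was not tested.

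**Figure D1:**
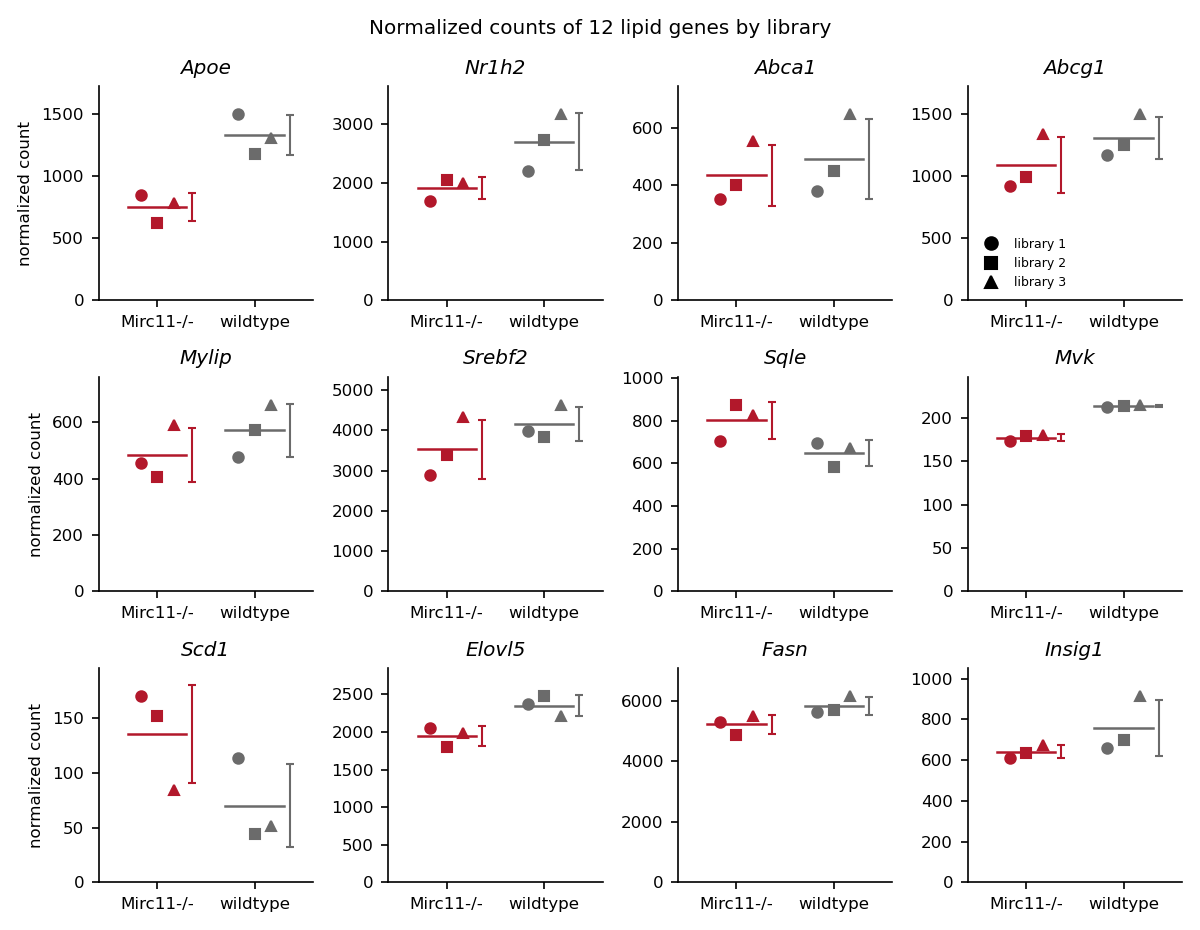
Normalized counts (y axis, from 0) of 12 lipid genes in 3 Mirc11-/- libraries (red, left) and 3 wildtype libraries (grey, right), with a horizontal line at each mean, a bar of 1 SD beside it and a marker shape for each library number. Apoe, Nr1h2, Mvk, Elovl5 and Fasn were lower in every Mirc11-/- library than in every wildtype library, and Sqle was higher.

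Macrophages make much Apoe, so their markers were read beside it. C1qa was 0 to 4.73 in Mirc11-/- and 2.03 to 5.96 in wildtype, and Emr1 (Adgre1) was 134, 82.0 and 48.3 in Mirc11-/- and 57.2, 78.4 and 52.7 in wildtype. The summed count of the 18 macrophage markers was 3989, 2957 and 2401 in Mirc11-/-, against 3111, 3911 and 3078 in wildtype. Of the 16 markers tested 6 were above 0 and 10 below 0. Like Apoe, 2 of the 16 were lower in every Mirc11-/- library than in every wildtype library, against 6.53% of all genes. These were Cd68, at 322, 287 and 301 in Mirc11-/-, against 339, 618 and 611 in wildtype, and Cd163, at 240, 262 and 338 in Mirc11-/-, against 358, 386 and 451 in wildtype. Lgals3 and Trem2 had the largest fold changes above 0 in the list, at 1.54 and 1.34. Lgals3 was at 610, 262 and 74.5 in Mirc11-/-, against 74.9, 75.4 and 83.1 in wildtype. Trem2 was at 58.6, 40.5 and 14.1 in Mirc11-/-, against 9.86, 12.9 and 14.2 in wildtype. The sums overlapped between the genotypes. The part of such cells in the Apoe difference was not tested.

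Nr1h2, the gene for the broadly expressed receptor LXR-beta, was lower in the Mirc11-/- libraries too. Nr1h2 (chr7:44549616-44553951, minus strand) had 1699, 2048 and 1998 in Mirc11-/-, against 2213, 2726 and 3178 in wildtype. The groups did not overlap, and the log2 fold change was -0.49 (SE 0.14, limma adjusted p = 0.444). Nr1h3, the LXR-alpha gene and the least abundant of the 33, had 16.1, 18.7 and 22.1 in Mirc11-/-, within the wildtype values of 15.8, 11.9 and 30.4. Its interval of -0.83 to 0.96 leaves the direction unresolved at this depth.

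The LXR targets that carry lipid out of the cell differed less than Apoe. Abca1, which loads cholesterol onto lipid-poor apolipoproteins, had 352, 400 and 553 in Mirc11-/-, against 380, 449 and 649 in wildtype (log2 fold change -0.17, SE 0.22). Abcg1, which loads it onto HDL, had 921, 994 and 1341 in Mirc11-/-, against 1169, 1249 and 1499 in wildtype (-0.28, SE 0.15). Mylip, the ligase that marks lipoprotein receptors for degradation, had 456, 404 and 589 in Mirc11-/-, against 476, 574 and 661 in wildtype (-0.24, SE 0.17). In all 3 genes the highest library of each genotype was library 3, and the Mirc11-/- library 3 value lay within the wildtype range. For Abca1 the Mirc11-/- library 2 value did too. The summed count of 14 HSPC markers had the same highest libraries, at 28134, 36164 and 49997 in Mirc11-/- and 42510, 42104 and 50456 in wildtype, and its part in these values was not tested. Without Mirc11-/- library 3 the Abcg1 fold change was -0.44 (limma adjusted p = 0.07), without library 1 it was -0.17 and without wildtype library 3 also -0.17. The Mylip fold change was -0.21, -0.13 and -0.40 without Mirc11-/- libraries 1, 2 and 3, and -0.37 and -0.13 without wildtype libraries 1 and 3. That of Abca1 was -0.03 without Mirc11-/- library 1 and 0.05 without wildtype library 3. Lpcat3, an acyltransferase that puts polyunsaturated chains into phospholipids, was at 2113, 2019 and 1558 in Mirc11-/- and 1840, 1628 and 1583 in wildtype (0.16, SE 0.12), with 0.08 without Mirc11-/- library 1 and 0.30 without Mirc11-/- library 3.

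Of the 7 LXR and efflux genes 5 were below 0 and 2 above 0, with a median log2 fold change of -0.24, against 0.0025 for all genes. This median was -0.17, -0.13 and -0.40 without Mirc11-/- libraries 1, 2 and 3, and -0.13 without wildtype library 3. In an additional list of 30 genes of LXR action and lipoprotein handling, 15 were above and 15 below 0, with a median of -0.001, and 0 were called by limma, edgeR or DESeq2. At an unadjusted p under 0.05, limma had 3 of the 30 lower and 3 higher (4.09% and 4.15% of all genes), edgeR 3 and 4 (4.01% and 4.65%), and DESeq2 3 and 3 (3.6% and 4.14%). Cyp27a1, which makes the LXR ligand 27-hydroxycholesterol in the liver and in macrophages, had 110, 90.3 and 78.5 in Mirc11-/-, against 154, 141 and 155 in wildtype (-0.70, SE 0.18, limma adjusted p = 0.431). The lipoprotein receptor genes Vldlr (-0.40, SE 0.16) and Lrp8 (-0.28, SE 0.09) were also lower, with no overlap between the groups. Abca3, Lpl and Lcat were higher, at 0.41 (SE 0.15), 0.83 (SE 0.32) and 1.08 (SE 0.44), and all 3 had the highest 2 values in Mirc11-/- libraries 1 and 2. The paper's supplementary list of TNF-regulated genes gives Lpl, Lcat, Lgals3 and Trem2 negative log fold changes, opposite in sign to the values here. Apoe, Cyp27a1 and Cd163 are negative in that list too, as they are here. Lpl, the lipoprotein lipase gene, was at 80.4, 85.2 and 41.3 in Mirc11-/-, against 41.4, 37.7 and 31.4 in wildtype. Without Mirc11-/- library 1 the fold changes of Lpl, Abca3 and Lcat were 0.68, 0.29 and 0.95, and without Mirc11-/- library 2 they were 0.64, 0.33 and 0.80. Without Mirc11-/- library 3, Lpl, Abca3 and Abcg4 were called higher by limma, where 1.94% of all genes were, and the erythroid sum was also highest in libraries 1 and 2; its part in these 3 genes was not tested.

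Sterol sensing showed no called difference. Srebf2, the gene for SREBP-2, had 2880, 3374 and 4322 in Mirc11-/-, against 3969, 3843 and 4628 in wildtype (log2 fold change -0.25, SE 0.14, limma adjusted p = 0.643). Mirc11-/- library 3 was again within the wildtype range, and without it the fold change was -0.41 (limma adjusted p = 0.0693). Without Mirc11-/- library 1 it was -0.11 (limma adjusted p = 0.873), without Mirc11-/- library 2 -0.23 and without wildtype library 3 -0.17. Insig1, itself an SREBP target, had 612, 636 and 674 in Mirc11-/-, against 659, 697 and 915 in wildtype (-0.23, SE 0.13), and -0.08 without wildtype library 3. Insig2 was at 252, 279 and 314 in Mirc11-/- and 265, 258 and 253 in wildtype (0.12, SE 0.13). Srebf1 was at 2034 to 2215 in Mirc11-/- and 2176 to 2351 in wildtype, and Scap at 2212 to 2457 in Mirc11-/- and 2231 to 2415 in wildtype. Scap was the flattest of the 5, with a 95% interval of -0.18 to 0.17.

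The 4 mevalonate genes were all below 0, with a median of -0.21, although Pmvk came above 0 without Mirc11-/- library 3 or wildtype library 1. Mvk, mevalonate kinase, had the tightest values: 173, 179 and 180 in Mirc11-/-, against 212, 213 and 215 in wildtype. The groups did not overlap (-0.27, SE 0.13, limma adjusted p = 0.617), and the SD on the log2 scale was 0.030 in Mirc11-/- and 0.0094 in wildtype, under the median of 0.147 and 0.146 of the 33 genes. The SE from limma also draws on the spread of genes of like level and is larger than these SDs. Fdps, farnesyl diphosphate synthase, had 785, 656 and 521 in Mirc11-/-, against 823, 736 and 690 in wildtype (-0.21, SE 0.15), and Mvd, the decarboxylase, had 227, 186 and 156 in Mirc11-/-, against 198, 210 and 239 in wildtype (-0.20, SE 0.17). Mirc11-/- library 3 was lowest for both, and without it Fdps was -0.06, Mvd -0.07 and the group's median -0.06. Without Mirc11-/- library 1 Fdps was -0.35 and Mvd -0.34. Pmvk, phosphomevalonate kinase, was at 321 to 374 in Mirc11-/- and 330 to 422 in wildtype.

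Of the 10 sterol genes 9 gave intervals that spanned 0, and the median was -0.03. Sqle, squalene epoxidase, which adds the oxygen before ring closure, was the exception. Sqle had 704, 873 and 826 in Mirc11-/-, against 697, 582 and 673 in wildtype, and was the only one of the 33 genes higher in every Mirc11-/- library than in every wildtype library. The margin was small in library 1, at 704 against a wildtype maximum of 697, and the log2 fold change was 0.30 (SE 0.12, 95% interval 0.03 to 0.56, limma adjusted p = 0.566). Its neighbours in the path did not share it: Fdft1, squalene synthase, was at 304 to 352 in Mirc11-/- and 332 to 360 in wildtype, and Lss, lanosterol synthase, at 291 to 336 in Mirc11-/- and 279 to 372 in wildtype. Hsd17b7, a keto reductase of the sterol ring, varied most among the Mirc11-/- libraries, at 98.4, 160 and 265, against 147, 181 and 139 in wildtype. Dhcr7, the last reductase before cholesterol, was at 702 to 720 in Mirc11-/- and 643 to 769 in wildtype (95% interval -0.23 to 0.21). Cyp51, Tm7sf2, Nsdhl, Ebp and Sc5d, which demethylate, reduce, isomerise or desaturate the ring, lay between -0.23 and -0.0018 and all overlapped between the genotypes.

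**Figure D2:**
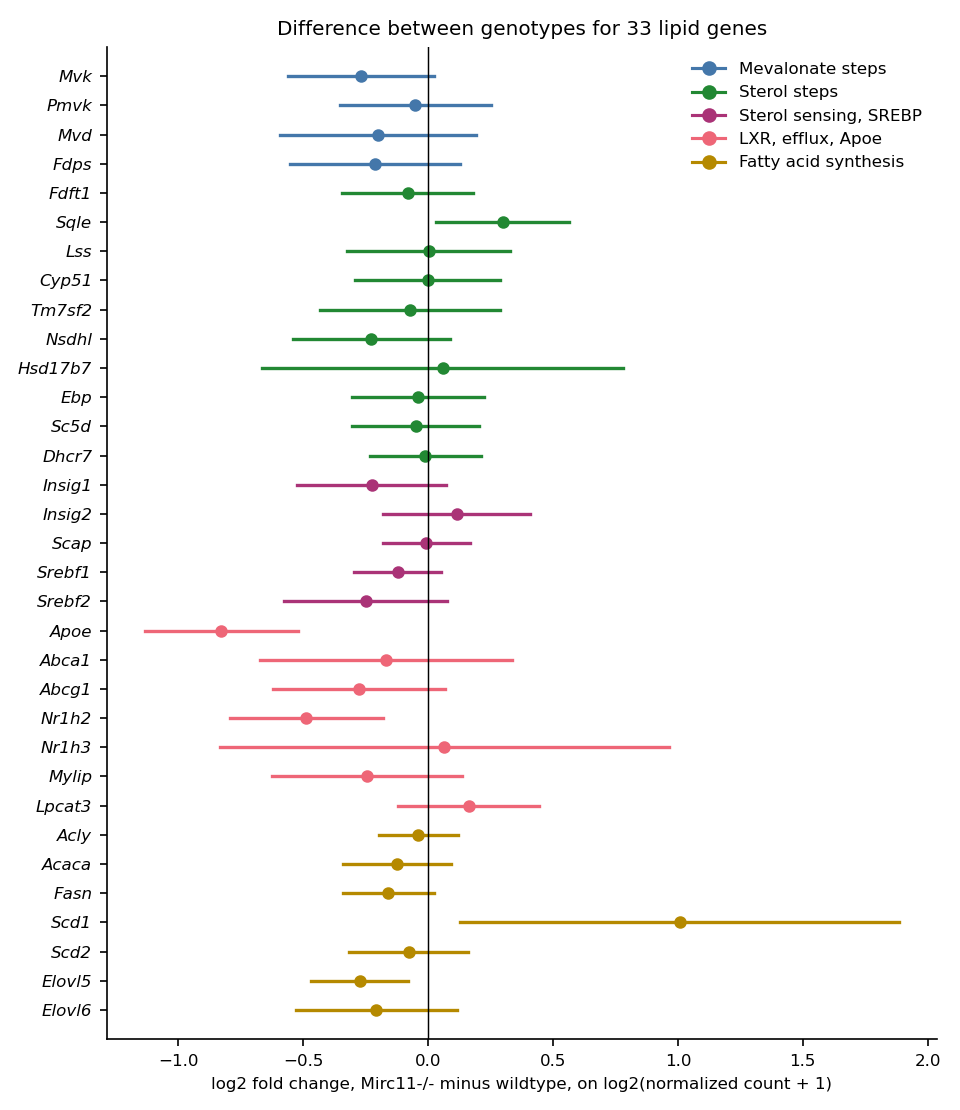
Log2 fold change (x axis, Mirc11-/- minus wildtype) of 33 lipid genes (y axis), points at the limma estimate and bars at the 95% interval, coloured by role. Apoe, at -0.83, and Nr1h2, at -0.49, lay lowest, Scd1, at 1.01, lay highest with the widest bar but 1, and most bars crossed 0.

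No enzyme of fatty acid synthesis was called by limma. Acly, which makes cytosolic acetyl-CoA from citrate, was at 5040 to 5381 in Mirc11-/- and 5232 to 5434 in wildtype (95% interval -0.20 to 0.12). Acaca, the carboxylase that commits acetyl-CoA to the path, was at 738 to 858 in Mirc11-/- and 820 to 910 in wildtype (-0.12, SE 0.10). Fasn, the fatty acid synthase, had 5288, 4863 and 5503 in Mirc11-/-, against 5616, 5703 and 6160 in wildtype, with no overlap (-0.16, SE 0.08, limma adjusted p = 0.623).

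Elovl5, an elongase of polyunsaturated chains, had 2057, 1793 and 1989 in Mirc11-/-, against 2366, 2478 and 2210 in wildtype. The groups did not overlap, and the log2 fold change was -0.27 (SE 0.09, limma adjusted p = 0.48). Elovl6, which elongates saturated chains, was at 819, 1003 and 1180 in Mirc11-/- and 1026, 1135 and 1284 in wildtype (-0.21, SE 0.14). It was -0.07 and -0.33 without Mirc11-/- libraries 1 and 3, and -0.12 without wildtype library 3.

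The desaturases Scd1 and Scd2, which put the first double bond into saturated chains and lie side by side on chromosome 19, differed in level and in fold change. Scd1 had 170, 152 and 84.5 in Mirc11-/-, against 113, 44.7 and 51.7 in wildtype. Mirc11-/- library 3 was below wildtype library 1, so the groups overlapped, and the log2 fold change of 1.01 (SE 0.39, limma adjusted p = 0.561) was the largest above 0. It was 0.81 and 0.90 without Mirc11-/- libraries 1 and 2, and 1.31 without library 3. Scd2 was at 6318 to 7430 in Mirc11-/- and 6696 to 8237 in wildtype (-0.08, SE 0.10). The paper's supplementary list of TNF-regulated genes has Scd, a symbol without a number, with a negative log fold change. That sign is opposite to Scd1 and the same as Scd2 here. Per kilobase of exon, Scd1 was 0.0282, 0.0268 and 0.0127 of Scd2 in Mirc11-/-, against 0.0188, 0.0074 and 0.007 in wildtype. The 2 highest Mirc11-/- libraries for Scd1, and the highest wildtype library, were also those with the highest erythroid sum, whose part in the Scd1 values was not tested. Scd1 shares 8.41% of its 30-base words with other transcripts, 6.02% of them with Scd3.

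Over the 33 genes, limma called 0 in either direction, where 0.0319% of all genes were called. At an unadjusted p under 0.05, 2 genes were higher (Scd1 and Sqle), where 4.15% of all genes were, and 3 were lower (Apoe, Nr1h2 and Elovl5), where 4.09% of all genes were. All 3 Mirc11-/- libraries lay above all 3 wildtype libraries in 1 gene, Sqle, against 6.42% of all genes, and below them in 5, Mvk, Apoe, Nr1h2, Fasn and Elovl5, against 6.53% of all genes. Signs leaned one way, with 26 of the 33 fold changes below 0 and 7 above, and a median of -0.08, against 7752 below and 7910 above 0 among all genes. The sign of 10 of the 33 changed in at least 1 fit that left out a library. The medians by role were -0.21 for mevalonate steps, -0.03 for sterol steps, -0.12 for sensing, -0.24 for LXR and efflux and -0.12 for fatty acid synthesis. These genes share regulators and libraries, so their signs are not independent of each other.

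**Figure D3:**
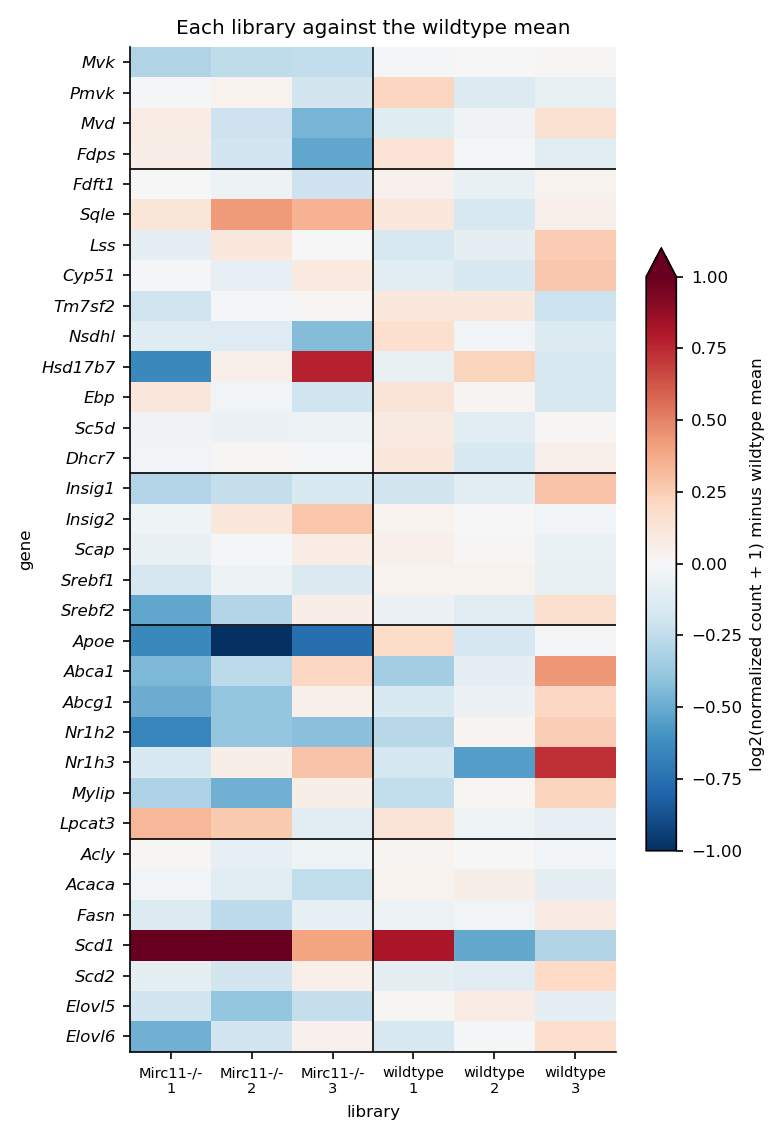
Log2(normalized count + 1) of each gene (y axis) in each library (x axis, Mirc11-/- left of wildtype) minus the gene's wildtype mean, in colour from -1 to 1, with roles divided by black lines; values beyond the ends take the end colour. Apoe was low in all 3 Mirc11-/- libraries (-0.64, -1.08 and -0.76). Abca1, Abcg1, Mylip and Srebf2 were below the wildtype mean in Mirc11-/- libraries 1 and 2 and above it in library 3. Abca1 in Mirc11-/- library 2 was within the wildtype range.

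In a second list of 25 SREBP-linked genes, 24 were tested and 11 were above and 13 below 0, with a median of -0.0043. By limma, edgeR and DESeq2 0 were called. At an unadjusted p under 0.05, limma had 3 higher and 3 lower (4.15% and 4.09% of all genes), and edgeR 3 and 2 (4.65% and 4.01%). DESeq2 also had 3 and 2 (4.14% and 3.6%). Elovl7, a further elongase, had 101, 153 and 153 in Mirc11-/-, against 87.8, 89.3 and 95.2 in wildtype (0.55, SE 0.21, limma adjusted p = 0.554). Gpam, the first acyltransferase of triglyceride synthesis, had 382, 419 and 391 in Mirc11-/-, against 328, 338 and 316 in wildtype (0.28, SE 0.11), and Acss2, which activates acetate, was higher at 0.37 (SE 0.15). Tecr, a reductase of chain elongation, was lower at -0.18 (SE 0.07), with no overlap between the groups.

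In level per kilobase of merged exons (GENCODE M21), the mean over the 6 libraries was highest for Scd2, at 1285 normalized counts per kilobase, and lowest for Nr1h3, at 7.62, a 169-fold range with a median of 163. Acly (999) came next below Scd2. In Mirc11-/- the means of Lpcat3 (580), Nr1h2 (571) and Elovl5 (553) followed and their values overlapped, and in wildtype those of Nr1h2 (807), Elovl5 (668) and Apoe (622) did, each overlapping with the one before it. Apoe averaged 352 per kilobase in Mirc11-/- and 622 in wildtype. In Mirc11-/- the Apoe values (397, 292 and 367 per kilobase) lay below every Fasn (483, 444 and 503) and Srebf2 value (401, 470 and 602), and in wildtype Apoe (702, 552 and 613) overlapped with Fasn (513, 521 and 563) and with Srebf2 (553, 535 and 644). The level of Srebf1 was 0.901, 0.837 and 0.612 of that of Srebf2 in Mirc11-/-, against 0.755, 0.780 and 0.599 in wildtype, with overlap.

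**Figure D4:**
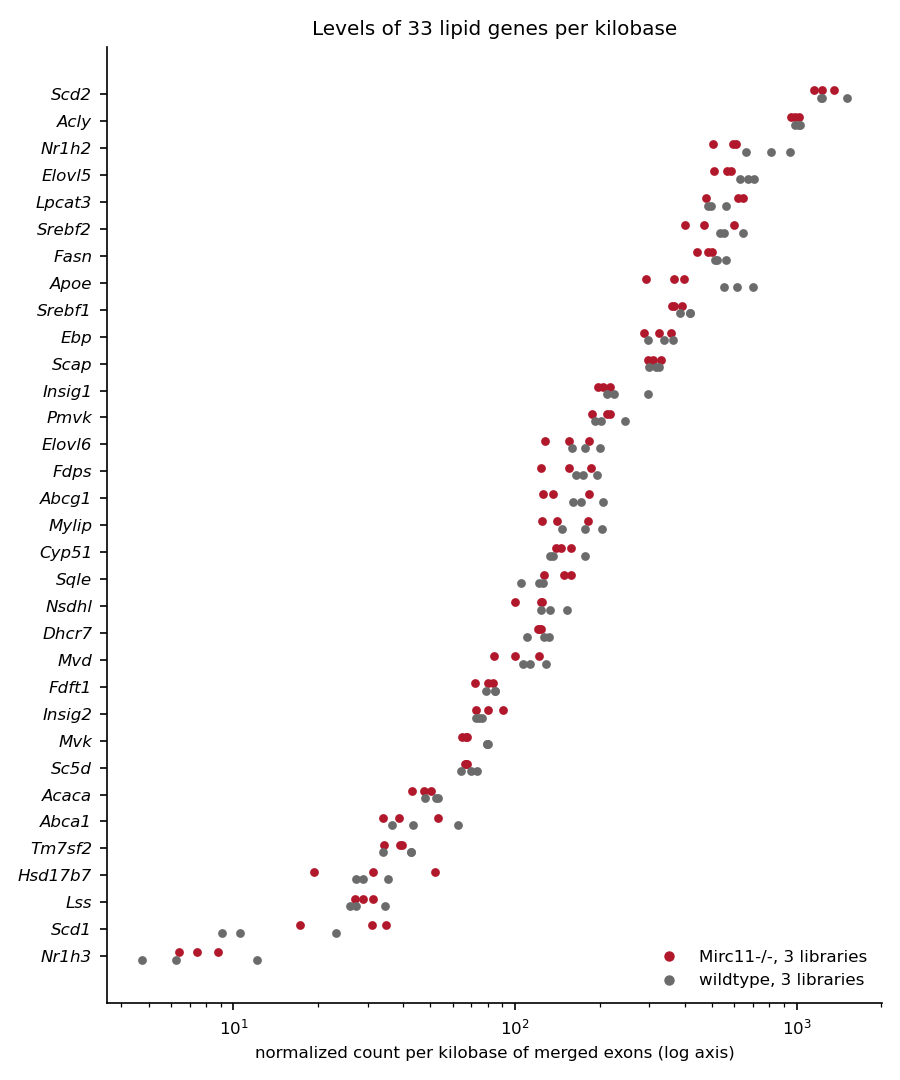
Normalized counts per kilobase of merged exons (x axis, log scale) of 33 lipid genes (y axis, highest at the top), with 3 Mirc11-/- libraries in red drawn above 3 wildtype libraries in grey. Scd2 lay highest and Nr1h3 lowest, and the red and grey points of Apoe were apart.

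Reads that neighbours or copies could take bear on some of these levels. Of the 30-base words of Fdps 67.6% occur in other transcripts, of Acaca 53.4%, of Tm7sf2 21.3% and of Fdft1 16.8%, and these 4 genes are uncertain for that reason. Genes on the opposite strand overlap 18.3% of the exon bases of Fdft1 (Ctsb), 13.2% of Scap and 10.2% of Lpcat3 (Emg1). Apoe, Nr1h2, Mvk, Sqle and Fasn had no overlapping exon of another gene.

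Promoters were read because the cholesterol genes are known as a jointly controlled set. Of the 33 genes 27 matched a RefSeq promoter window of 250 bases before to 50 after a gene start (GRCm38.p6), 7 of them with more than 1 window, and 11290 tested genes did. The searched letters, on both strands, were CCAAT (the site of NF-Y), GGGCGG (the GC box of the Sp factors), TCACCCCA (the SRE core) and its relative TCACCCCC, and TCACGTG (an E-box form). The windows of 4 genes are shown: Apoe for its SRE core, which is in the printed one of its 3 windows and in neither of the other two, Mvk for its 5 CCAAT boxes, Insig1 for its E-box, and Nr1h2, which had neither an SRE form nor a CCAAT box; SRE cores and E-boxes are in capitals.
Apoe, chr7:19699139-19699438, minus strand: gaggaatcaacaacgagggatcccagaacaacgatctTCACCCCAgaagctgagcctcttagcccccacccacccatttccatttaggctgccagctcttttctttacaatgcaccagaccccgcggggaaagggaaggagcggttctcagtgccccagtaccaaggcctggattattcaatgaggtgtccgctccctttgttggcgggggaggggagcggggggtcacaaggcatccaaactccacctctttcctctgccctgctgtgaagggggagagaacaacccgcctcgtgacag
Mvk, chr5:114444019-114444318, plus strand: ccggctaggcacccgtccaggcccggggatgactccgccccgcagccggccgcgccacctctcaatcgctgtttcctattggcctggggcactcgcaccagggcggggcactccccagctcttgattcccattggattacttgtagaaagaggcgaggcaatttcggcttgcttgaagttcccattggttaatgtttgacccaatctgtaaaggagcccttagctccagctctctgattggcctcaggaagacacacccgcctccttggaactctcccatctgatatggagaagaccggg
Insig1, chr5:28071162-28071461, plus strand: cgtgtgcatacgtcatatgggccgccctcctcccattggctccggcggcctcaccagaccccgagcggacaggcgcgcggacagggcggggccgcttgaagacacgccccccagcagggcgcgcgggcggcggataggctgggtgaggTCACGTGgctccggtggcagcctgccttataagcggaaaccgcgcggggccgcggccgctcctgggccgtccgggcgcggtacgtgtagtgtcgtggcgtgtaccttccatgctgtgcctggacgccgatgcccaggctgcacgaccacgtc
Nr1h2, chr7:44553916-44554215, minus strand: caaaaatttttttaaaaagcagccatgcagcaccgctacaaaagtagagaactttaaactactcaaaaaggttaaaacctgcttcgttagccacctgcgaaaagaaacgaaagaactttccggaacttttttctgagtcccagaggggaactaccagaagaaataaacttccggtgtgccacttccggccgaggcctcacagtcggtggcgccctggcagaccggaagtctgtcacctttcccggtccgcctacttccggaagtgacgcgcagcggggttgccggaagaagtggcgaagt

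CCAAT was found in 20 of the 27 genes (74.1%), against 42.3% of the 11290 genes. It was in 3 of 3 mevalonate and 8 of 8 sterol genes with a window, in 4 of 5 sensing genes, in 3 of 5 fatty acid genes and in 2 of 6 LXR and efflux genes. The GC box was in 19 of 27 (70.4%), against 64.8%, including 8 of 8 sterol genes. The SRE core was in 2, Srebf2 at base -162 and Apoe at base -213 (7.41%, against 1.72%), and its relative in 3, Insig2, Nr1h3 and Lpcat3 (11.1%, against 1.66%). The E-box was in Hsd17b7, Sc5d, Insig1 and Elovl5 (14.8%, against 6.52%).

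**Figure D5:**
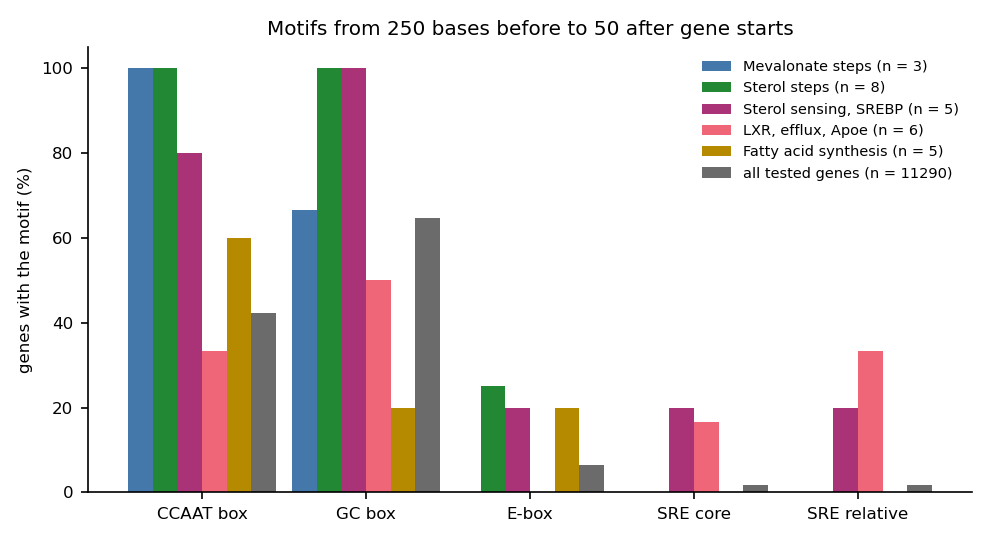
Share of genes with each motif (y axis, %) by role (coloured bars) and among all tested genes (grey bars, right), for CCAAT, GC box, E-box, SRE core and SRE relative; no bar means 0. CCAAT reached 100% of the mevalonate and sterol genes with a window and 42.3% of all genes.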

How the data were processed

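RNA-seq of 3 Mirc11-/- and 3 wildtype LSK libraries was analysed, with genotype and replicate taken from the labels. Libraries were made with a kit that the labels name without a strand option. In the submitters' notes STAR, Cufflinks and mm10 are listed, whereas the supplementary methods list a human build; versions and annotation: not given in the sources used here. FPKM stands in the name of the table that the authors deposited. Its deposited signal is a read count over a library size factor, since every value was a whole multiple of 1 step per library within 0.001. The design had not assumed counts, so limma 3.58.1 (R 4.3.3) with a mean-variance trend was run on log2(value + 1) for genes with a mean of at least 1, two-sided, with Benjamini-Hochberg adjustment over 15662 genes and a threshold of 0.05. edgeR 4.0.16 and DESeq2 1.42.0 were run on the recovered reads. The 2 symbols on 2 entries each were summed. No library was scaled further.

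The members and lists were chosen with earlier results of these data known. Named genes were all members that passed the minimum, those of the 2 other lists with an unadjusted p under 0.05, and defining markers. Not all genes that rule selects are reported here. Cd68, Cd163, Lgals3, Trem2 and Abcg4 were added after their values were seen. Sequences and gene models came from RefSeq GRCm38.p6 and GENCODE M21. The planned search for LXR elements used another spacing than theirs and is not reported. The fits were tested on simulated counts. P-values measure the spread between 3 pooled preparations per genotype.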

Additional observations from a re-analysis of the deposited data

How the results depend on the processing

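Over all genes limma called 1 higher and 4 lower. Without a trend it called 2 and 2, DESeq2 38 and 87, and array weights 2868 and 2809; the array weights did not converge and gave Mirc11-/- library 2 a weight of 23.9, so that fit is not relied on. Of the 33 genes array weights called 3 higher and 8 lower, and DESeq2 called 1 lower (Apoe). At an unadjusted p under 0.05, 0 of the 33 were higher without a trend and 13 were lower with array weights. Over all 15662 genes these fits had 1187 and 7379 at that p, in either direction. Leaving out 1 library gave 1 to 303 genes higher and 0 to 228 lower over all genes, both highest without Mirc11-/- library 3. Among the 33 genes 0 to 1 were called lower, and 0 to 2 were higher and 2 to 8 lower at that unadjusted p. The 8 came without Mirc11-/- library 3, a fit with 3136 of 15633 genes at that p in either direction. The median fold change ranged from -0.121 to -0.0672 for the 33 genes, -0.293 to -0.0632 for mevalonate, -0.0607 to -0.0047 for sterol, -0.158 to -0.0818 for sensing, -0.396 to -0.125 for LXR and efflux and -0.14 to -0.0714 for fatty acid genes.

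Fold changes near 0 turned their direction: with array weights Pmvk was 0.0789, Cyp51 0.0058, Hsd17b7 -0.0518 and Dhcr7 0.0706, and with edgeR and DESeq2 Lss was -0.0068 and -0.0064 and Nr1h3 -0.0292 and -0.0291. When 1 library was left out the ranges were -0.121 to 0.055 for Pmvk, -0.0773 to 0.129 for Lss, -0.0786 to 0.131 for Cyp51, -0.298 to 0.411 for Hsd17b7, -0.118 to 0.0422 for Ebp, -0.0874 to 0.0416 for Dhcr7, -0.0474 to 0.0284 for Scap, -0.355 to 0.0491 for Abca1, -0.212 to 0.429 for Nr1h3 and -0.14 to 0.0214 for Scd2. Pseudocounts of 0.1 and 0.5, no filter, a minimum of 5, and median-ratio, TMM and quantile scaling turned no direction and moved no count by over 1.5 times.

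Whether replicate numbers pair the samples was not settled. Same-numbered deviations correlated at 0.066, -0.063 and 0.097, and differently numbered ones at -0.133 to 0.074. With 3 libraries per genotype such correlations cannot exclude a pairing. With the replicate block limma called 3 genes higher and 27 lower over all genes, and 1 of the 33, Apoe, lower. At an unadjusted p under 0.05 this fit had 2 of the 33 higher and 7 lower. Over all genes 1918 of 15662 were at that p in either direction. The causes of these differences between settings were not tested. Depth limits Nr1h3 most, with 115 reads in all.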
